A study of Mus musculus with 14 samples.

Results

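C-type lectins, Siglecs and CD300 receptors are families of cell surface receptors by which macrophages read glycans, lipids and dying cells. The genes examined here were the mouse protein-coding genes whose symbols begin with Clec, Siglec or Cd300, together with Cd22, Cd33, Mag and Sigirr and without Clec7a, Siglech and Siglece. This choice by name gave 52 genes of the 21887 protein-coding genes on the autosomes and sex chromosomes. They were 32 Clec genes, 12 Cd300 genes, 7 genes of the Siglec family (the Siglec symbols with Cd22, Cd33 and Mag) and Sigirr, which is a receptor of the interleukin-1 receptor family and only resembles the others in name. The lectin domain is likewise absent from Clec16a, an intracellular protein of endosomes and mitophagy that carries the family symbol.

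As background, many of these receptors signal in opposing ways. Activating members such as Clec4e (Mincle), Clec4n (Dectin-2), Clec5a and Cd300lb pair with the ITAM adaptors Fcer1g or Tyrobp and recruit the kinase Syk, which for several lectins leads on to Card9, Bcl10 and Malt1. Inhibitory members such as Clec12a, Cd22, Siglecf, Cd300a and Cd300lf carry ITIM sequences that recruit the phosphatases Ptpn6 and Ptpn11, and Siglecs bind sialic acid, a sugar abundant on tumour cells. In tumour-associated macrophages these families are known for recognising tumour glycans and for restraining phagocytosis.

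Acetylation of histone H3 at lysine 27 (H3K27ac), found at active promoters and enhancers, was mapped by CUT&Tag, in which an antibody directs a transposase to the marked chromatin. The cells were CD11b+ tumour-associated macrophages sorted from T387 glioblastoma (GBM) xenografts grown in the brains of NSG mice, which lack T, B and NK cells. There were 4 H3K27ac libraries from mice given pracinostat, a histone deacetylase inhibitor, and 3 from mice given the DMSO vehicle, and the same numbers of libraries with non-specific IgG. Pracinostat was given by mouth at 30 mg/kg, with 4 doses a week over 3 weeks, starting on day 7 of tumour growth, although the preparation text of the labels names 3 mg/kg; every mouse of either group carried a tumour and was given the solvent mixture. The labels call the libraries biological replicates and do not say whether each came from 1 animal, so the p-values measure only the spread between these samples.

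The deposited values were peak summits with a −log10 significance score, which depends on depth, so levels are given as ranks within a library. A gene took the highest score of any summit within 1 kb of either gene end, genes that had one in 3 or more H3K27ac libraries were ranked, and a percentile of 100 was the highest-ranked gene. Of the 52 receptor genes, 39 (75%) were ranked, beside 13494 of all 21887 genes (61.7%). The H3K27ac lists held 208401 to 291042 summits, except DMSO replicate 2 with 53503. In that library genes with no summit tied at a percentile of 19.0, which took 24 of the 39 ranked receptor genes. Another 6 sat at its lowest score, at 47.3, and only 9 stood above these ties. In the other libraries the tie of genes with no summit lay at 5.15, 3.69, 5.23 and 3.42 (pracinostat, in order) and at 5.61 and 3.83 (DMSO replicates 1 and 3). All 8 macrophage and microglia markers listed had a summit in all 7 libraries, as did 34.7% of all genes. Their mean percentile was 70.3 ± 6.23 in pracinostat libraries and 61.4 ± 2.49 in DMSO libraries (SD, n = 4 and 3). Of the markers listed for other cells, 2 of 7 for neutrophils and 2 of 5 for oligodendrocytes also had a summit in all 7 libraries. So did 1 of 5 each for dendritic, B and endothelial cells, and none for T and NK cells or platelets. A lower rank can come from fewer cells with the mark or from less mark per cell, which cannot be told apart in bulk libraries.

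Marking of the receptor genes was uneven. A summit lay at the ends of 39, 34, 32 and 38 of the 52 genes in the 4 pracinostat libraries and of 29, 15 and 38 in the 3 DMSO libraries. As shares these were 75, 65.4, 61.5 and 73.1% in pracinostat libraries, beside 58.4, 60.2, 58.6 and 61.4% of all genes. In DMSO libraries they were 55.8, 28.8 and 73.1%, beside 57.5, 38.8 and 61.6% of all genes. Against these, the 7 IgG libraries had a summit at between 0 and 2 of the 52 genes, or 0 to 3.85%, beside 0.53 to 2.70% of all genes in the same libraries. The 4 genes with an IgG summit were Clec1b, Cd300ld3, Clec16a and Siglec15. Summits were present in all 7 H3K27ac libraries at 11 receptor genes (21.2%), a smaller share than the 34.7% of all genes. These 11 were Siglec1, Clec4a1, Clec4a3, Siglecf, Cd300a, Cd300lb, Cd300c2, Cd300ld4, Cd300ld3, Cd300lf and Clec16a, so 6 of the 12 Cd300 genes were among them and 3 of the 32 Clec genes.

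Clec2g, Clec2h, Clec4g, Clec14a, Cd300ld5 and Mag had no summit at their ends in any H3K27ac library. They are 11.5% of the 52 genes, a smaller share than the 23.1% of all genes without one. Clec14a is an endothelial receptor, Clec4g a lectin of liver sinusoids and Mag a Siglec of myelinating glia. Within the gene body as well, Clec14a and Cd300ld5 had none in any library, whereas Mag and Clec2g had a summit inside the gene in all 7. Another 7 genes, Clec1a, Clec1b, Clec2e, Clec3b, Clec4b2, Clec12b and Clec18a, were marked at their ends in 1 or 2 libraries and were not ranked. The 39 ranked receptor genes had a median mean percentile of 26.96, beside 51.2 for all ranked genes, and 10 of the 39 lay above 50.

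**Figure D1:**
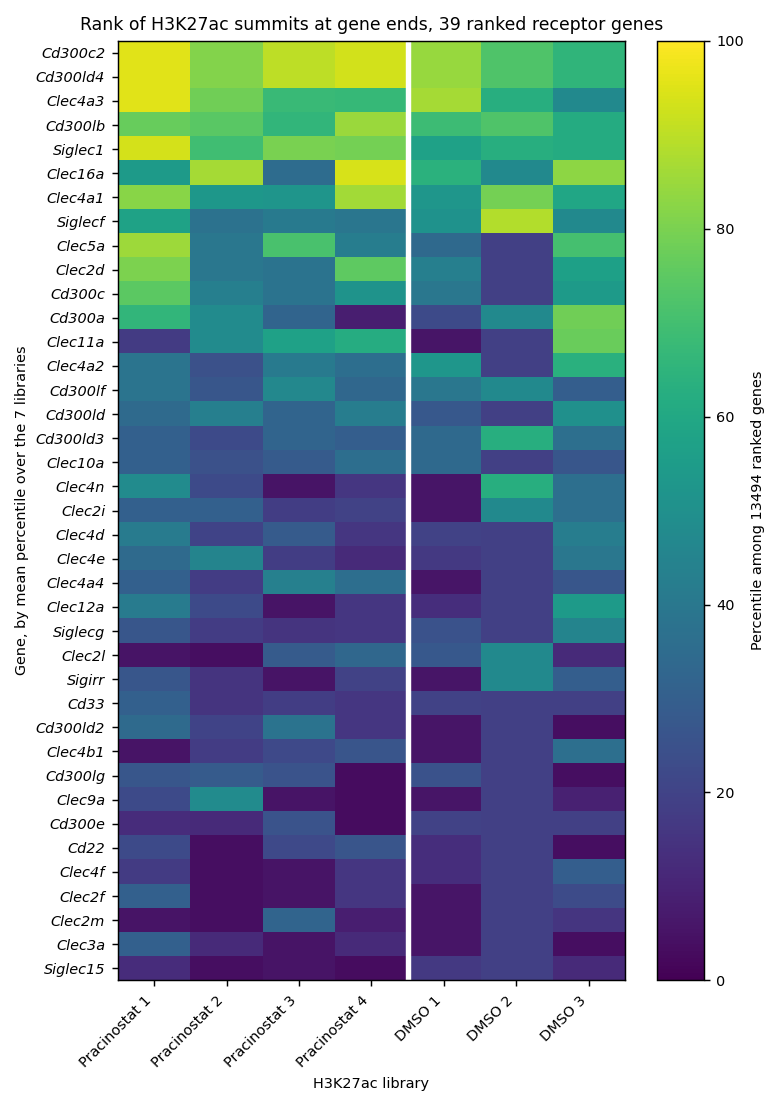
Percentile of the highest H3K27ac summit at the gene ends for the 39 ranked receptor genes (rows) in the 4 pracinostat and 3 DMSO libraries (columns), among 13494 ranked genes. Cd300c2 and Cd300ld4, which share a window, are at the top with 65.2 to 95.5, and the uniform colour of most rows in DMSO 2 is the tie of unmarked genes at 19.0.

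Among the receptors that couple to ITAM signalling, 12 of 14 were ranked and their mean percentiles ran from 10.4 to 83.2. Cd300c2 (CLM-4, chromosome 11, 114996721 to 115004261) led all members with percentiles of 95.5, 81.4, 90.0 and 93.3 in pracinostat libraries, against 84.8, 72.3 and 65.2 in DMSO libraries. Cd300ld4 (chromosome 11, 115003951 to 115027070) had the same values, because the upper end of Cd300c2 and the lower end of Cd300ld4 lie within the same window. The 3 lowest of the 7 values were from pracinostat replicate 2 and DMSO replicates 2 and 3, so the groups overlapped. The difference was 0.67 ± 0.40 (SE) in normal-score units, the scale on which ranks were tested, with a limma adjusted p of 0.848.

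Cd300lb (CLM-7, chromosome 11, 114922779 to 114934371), a receptor that signals through Tyrobp, had percentiles of 76.9, 74.3, 65.8 and 85.0 in pracinostat libraries, against 68.6, 72.3 and 61.3 in DMSO libraries. Its values stayed above 61 in every library, with the groups overlapping. Clec4e (chromosome 6, 123281789 to 123289871), which recognises mycobacterial glycolipid and a protein of dying cells, was far lower at 34.7, 45.1, 18.3 and 12.1 in pracinostat libraries and at 16.4, 19.0 and 39.5 in DMSO libraries, the value of 19.0 being the tie of DMSO replicate 2. Its neighbours Clec4d and Clec4n averaged 26.8 and 28.1 over the 7 libraries, beside 26.4 for Clec4e, so the 3 lectins of that stretch that pair with Fcer1g had close mean ranks.

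Clec9a (chromosome 6, 129408862 to 129424764), the receptor for exposed actin on conventional dendritic cells, had percentiles of 22.3, 48.3, 5.23 and 3.42 in pracinostat libraries, against 5.61, 19.0 and 9.06 in DMSO libraries. It shares a window with Clec1a and was unmarked in some libraries of both groups. Siglec15 (chromosome 18), a Tyrobp-coupled Siglec of osteoclasts, was the lowest of all ranked members at 12.7, 3.69, 5.23 and 3.42 in pracinostat libraries and 16.4, 19.0 and 12.0 in DMSO libraries. Siglec15 had the largest negative difference of the 39 genes, −0.58 ± 0.34 normal-score units, with a limma adjusted p of 0.848. It had a summit in only 3 of the 7 libraries, pracinostat replicate 1 and DMSO replicates 1 and 3. Its other values, among them its highest, 19.0 in DMSO replicate 2, are the ties of genes with no summit. All its ranks lie near the bottom, and it was among the 4 genes with an IgG summit, in 2 IgG libraries.

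Of the 9 receptors that carry ITIM sequences, 8 were ranked, 2 with a higher and 6 with a lower mean score in pracinostat libraries, and none passed the test. Siglecf (chromosome 7, 43351341 to 43359475), an inhibitory Siglec best known from eosinophils and alveolar macrophages, had percentiles of 57.5, 37.8, 41.0 and 39.3 in pracinostat libraries, against 51.1, 88.7 and 47.5 in DMSO libraries. The groups overlapped, and the highest value, 88.7, came from DMSO replicate 2. Its difference of −0.55 ± 0.37 had a limma adjusted p of 0.864, and without DMSO replicate 2 it was −0.14 ± 0.36.

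Cd300a (chromosome 11, 114889152 to 114901946), an inhibitory receptor for phosphatidylserine on dying cells, had percentiles of 65.7, 48.3, 32.3 and 8.52 at its gene ends in pracinostat libraries, against 22.6, 47.3 and 78.3 in DMSO libraries. Cd300lf (CLM-1, chromosome 11, 115116214 to 115135372), which also binds lipids of dying cells, had percentiles of 38.3, 26.7, 46.6 and 33.2 in pracinostat libraries, against 39.8, 47.3 and 30.0 in DMSO libraries. In both genes the groups overlapped, and both ranked higher at their RefSeq starts, which lie inside the annotated span. Clec12a (chromosome 6, 129349783 to 129365303), an inhibitory receptor for uric acid crystals, reached 41.7, 22.4, 5.23 and 15.9 in pracinostat libraries and 12.965, 19.0 and 54.7 in DMSO libraries. Cd22 (chromosome 7, 30865404 to 30880342), a Siglec of B cells and of microglia, stayed at 22.3, 3.69, 21.9 and 26.5 in pracinostat libraries and at 12.965, 19.0 and 3.83 in DMSO libraries.

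Siglec1 (chromosome 2, 131067801 to 131086778), the interferon-induced adhesion receptor CD169 of macrophages that lacks a signalling motif, was the highest Siglec. Its percentiles were 93.4, 69.5, 79.9 and 79.1 in pracinostat libraries, against 57.1, 62.6 and 61.3 in DMSO libraries. Every pracinostat library ranked Siglec1 above every DMSO library, and it was the 1 member of which this held, beside 2.88% of all ranked genes. The mean was 80.5 ± 9.81 in pracinostat libraries and 60.4 ± 2.84 in DMSO libraries (SD, n = 4 and 3). The difference of 0.65 ± 0.38 did not pass the test, with a limma adjusted p of 0.848. Inside the gene, 4511 bp from its nearer end, a region at chr2:131082017-131082517 had its 4 lowest ranks in pracinostat libraries. Its values were 23.2, 7.47, 10.8 and 7.75, against 28.1, 95.6 and 41.4 in DMSO libraries. Only 4 of the 7 libraries had a summit there, and 7.47, 10.8 and 7.75 are the ties of regions with no summit. Every DMSO library but only pracinostat replicate 1 had a summit in it. The DMSO libraries alone thus brought the region past the filter of 3 libraries, and its order is no result. The DMSO mean of this region rests largely on replicate 2, and its limma adjusted p was 0.895.

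Cd33 (chromosome 7, 43527399 to 43537424), a sialic acid receptor of myeloid cells and a known risk locus of Alzheimer disease in humans, ranked 30.8, 14.9, 18.3 and 15.9 at its gene ends in pracinostat libraries and 19.6, 19.0 and 19.0 in DMSO libraries. Clec4f (chromosome 6, 83644542 to 83656116), a galactose-binding lectin of Kupffer cells, stayed low at 17.6, 3.69, 5.23 and 15.9 in pracinostat libraries and at 12.965, 19.0 and 30.0 in DMSO libraries. Clec2l (chromosome 6, 38663069 to 38680865), a neuronal lectin, had 5.15, 3.69, 28.9 and 33.2 in pracinostat libraries, against 27.6, 47.3 and 12.0 in DMSO libraries. Their differences of −0.49 ± 0.36 for Clec4f and −0.49 ± 0.39 for Clec2l had limma adjusted p of 0.877 for Clec4f and 0.891 for Clec2l, and without DMSO replicate 2 that of Clec2l was −0.22 ± 0.44. Of the 8 Clec2 genes, several of which encode ligands of the NK cell receptors of the Klrb1 family, 5 were ranked, Clec2d at a mean percentile of 50.4 over the 7 libraries and the other 4 at 12.8 to 26.96.

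Clec4a3 (chromosome 6, 122952515 to 122969878), a relative of the inhibitory receptor DCIR, had percentiles of 95.5, 78.3, 67.8 and 66.9 in pracinostat libraries, against 86.6, 62.6 and 47.5 in DMSO libraries. Clec4a1 (chromosome 6, 122921848 to 122934619), its neighbour, had 82.1, 52.9, 52.3 and 86.2 in pracinostat libraries, against 52.6, 79.2 and 59.2 in DMSO libraries. In both genes the groups overlapped and the spread within a group exceeded the difference of the means. Clec16a (chromosome 16, 10545309 to 10744878) varied most among the leading genes, at 54.5, 86.7, 35.4 and 93.9 in pracinostat libraries and 63.9, 47.3 and 83.1 in DMSO libraries. Sigirr (chromosome 7, 141091175 to 141100597), a brake on interleukin-1 family signalling, had 26.7, 14.9, 5.23 and 19.6 in pracinostat libraries, against 5.61, 47.3 and 30.0 in DMSO libraries, in windows shared with Pkp3 and Ano9.

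The annotated ends of several genes were far from the start of the RefSeq transcript, so the mark was also read within 1 kb of each RefSeq start (assembly GRCm38.p6, the assembly that mm10 names). A start was listed for 40 of the 52 genes and 25 of them could be ranked, among 10153 genes. The start lay over 1 kb inside the annotated gene for 7 members: Cd300c2 (2381 bp), Cd33 (4253 bp), Cd300lf (1380 bp), Cd22 (1314 bp), Cd300e (4637 bp), Clec18a (10716 bp) and Clec12b (42131 bp). The reading changed most for Cd33, whose mean percentile over the 7 libraries was 64.4 at the start and 19.6 at the gene ends. Cd300a had 79.0 at its start, 889 bp inside the gene, and 43.3 at its ends, and Cd300lf had 61.8 at its start and 37.4 at its ends. All 3 starts carried a summit in all 7 libraries, so Cd300a, and not Cd300c2, was the highest member by its start. Cd22 had 28.8 at its start and 15.7 at its ends. The other 21 genes with both readings ranked lower at the start, Clec11a by most, at 9.60 by its start and 40.9 by its ends, which share a window with Shank1. The percentiles of the 2 readings are among different sets of genes. Where the start is the annotated gene end, the windows at the gene ends contain that at the start. For such genes the start score could only be equal or lower, so the direction is no result.

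**Figure D2:**
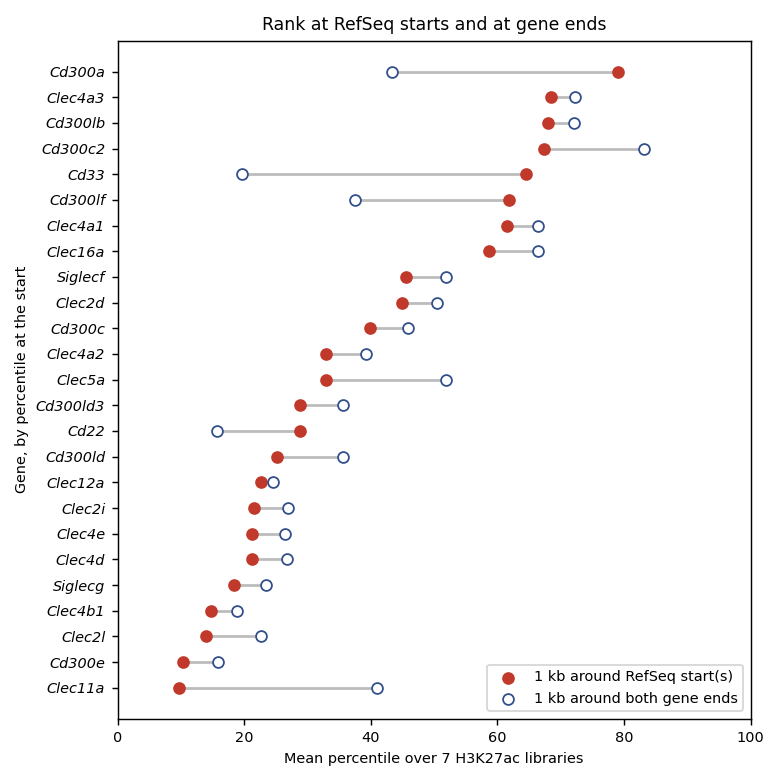
Mean percentile over the 7 H3K27ac libraries at RefSeq starts (filled points, among 10153 genes) and at both gene ends (open points, among 13494 genes) for the 25 members ranked by both. Cd33, Cd300a, Cd300lf and Cd22 lie to the right at their starts, and Clec11a lies furthest to the left.

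At the start of Cd300a the percentiles were 85.9, 42.5, 88.4 and 91.5 in pracinostat libraries, against 74.6, 95.7 and 74.6 in DMSO libraries. The top summit sat 110 to 377 bp downstream of the start in every library, and only pracinostat replicate 2 ranked it low. At the start of Cd33 they were 65.9, 52.6, 90.3 and 62.4 in pracinostat libraries, against 55.1, 42.2 and 82.8 in DMSO libraries, and the start of Cd300lf gave 60.5, 72.7, 61.1 and 64.8 in pracinostat libraries and 83.0, 42.2 and 48.3 in DMSO libraries. The value of 42.2 in DMSO replicate 2 is again the tie at its lowest score. The median position of the top summit was 9 bp downstream of the Cd33 start and 2 bp downstream of the Cd300lf start.

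The 250 bases before the start are shown, from RefSeq GRCm38.p6, for Cd33, Cd300a and Cd300lf, the 3 genes that gained most in rank at the start, and for Cd300c2 and Cd300lb, the other Cd300 genes marked at their start in all 7 libraries with a mean percentile above 60. Each runs 5′ to 3′ on the strand of its gene and ends at the base before the start. The windows are chr11:114889791-114890040 on the plus strand for Cd300a, and on the minus strand chr7:43533172-43533421 for Cd33, chr11:115133993-115134242 for Cd300lf, chr11:115001881-115002130 for Cd300c2 and chr11:114934372-114934621 for Cd300lb. Capitals mark the letters GAGGAA on either strand (TTCCTC as printed when on the other strand), the core bound by the myeloid factor PU.1, and, in Cd300a, TTGCNNAA, a form of the C/EBP motif.
Cd300a: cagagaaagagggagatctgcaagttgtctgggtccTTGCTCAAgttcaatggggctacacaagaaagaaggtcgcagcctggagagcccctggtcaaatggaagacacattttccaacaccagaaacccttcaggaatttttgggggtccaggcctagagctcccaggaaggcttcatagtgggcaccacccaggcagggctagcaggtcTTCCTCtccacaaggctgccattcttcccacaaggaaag
Cd33: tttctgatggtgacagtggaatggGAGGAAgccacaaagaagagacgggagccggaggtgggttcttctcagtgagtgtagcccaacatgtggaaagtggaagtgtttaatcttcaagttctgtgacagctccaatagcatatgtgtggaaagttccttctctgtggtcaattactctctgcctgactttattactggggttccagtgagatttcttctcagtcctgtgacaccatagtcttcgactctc
Cd300lf: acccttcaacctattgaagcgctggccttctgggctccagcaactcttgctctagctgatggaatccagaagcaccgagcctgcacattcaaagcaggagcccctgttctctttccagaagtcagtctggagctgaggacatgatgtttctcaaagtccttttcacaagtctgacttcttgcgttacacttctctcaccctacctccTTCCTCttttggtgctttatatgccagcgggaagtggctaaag
Cd300c2: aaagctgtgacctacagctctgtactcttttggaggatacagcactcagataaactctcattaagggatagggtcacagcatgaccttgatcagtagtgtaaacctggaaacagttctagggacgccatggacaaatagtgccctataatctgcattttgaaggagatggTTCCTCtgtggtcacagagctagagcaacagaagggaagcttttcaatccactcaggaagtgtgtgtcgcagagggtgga
Cd300lb: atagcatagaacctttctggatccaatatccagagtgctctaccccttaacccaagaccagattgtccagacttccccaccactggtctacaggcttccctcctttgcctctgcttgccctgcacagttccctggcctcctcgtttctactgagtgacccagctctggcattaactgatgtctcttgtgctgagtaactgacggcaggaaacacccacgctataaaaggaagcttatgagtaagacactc

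The PU.1 core began 39 bases before the start of Cd300a, 43 before that of Cd300lf, 80 before that of Cd300c2 and 226 before that of Cd33, and the window of Cd300lb did not hold it. Over all members with a listed start, 24 of 40 genes (60%) had GAGGAA on either strand within the 250 bases of at least 1 start, beside 25.9% of the 27025 genes in the promoter table. Counted per start, 25 of 45 windows of members held it and 23.3% of 32851 windows in all. For the AP-1 letters TGANTCA the counts were 5 of 40 members (12.5%) and 7.82% of all genes, for TTGCNNAA 6 members (15%) and 10.8%, and for an interferon-response motif (GAAA, any 2 bases, GAAA) 3 members (7.5%) and 3.46%; none of these motifs overlapped another in the windows printed. The promoter table is not limited to the 21887 protein-coding genes, of which 17492 had a listed start. The shares of members and of all genes in it are therefore of unlike sets. These are matches of letters and no binding was measured.

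The comparison of pracinostat with DMSO asked whether a deacetylase inhibitor shifted the rank of the mark at the receptor genes. A rise or fall of the mark shared by all genes leaves ranks within a library unchanged, so it could not be seen here. At the gene ends, 0 of the 39 ranked receptor genes passed a limma adjusted p of 0.05, beside 0% of the 13494 genes tested (832 of all genes and 1 receptor gene had an unadjusted p under 0.05). The mean score was higher in pracinostat libraries for 21 receptor genes and lower for 18, with a median difference of 0.06 normal-score units, beside −0.01 for all ranked genes. Of the 39, Cd300ld2 and Clec3a had summits in pracinostat libraries only, so they entered the ranking only through the group in which they have summits, and their direction is no result. The other 37 split into 19 higher and 18 lower, with differences from −0.58 for Siglec15 to 0.67 for Cd300c2 and a smallest adjusted p of 0.848. By family, 7 of the 11 ranked Cd300 genes, 11 of 21 Clec genes and 3 of 6 genes of the Siglec family were higher, and Sigirr was lower.

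**Figure D3:**
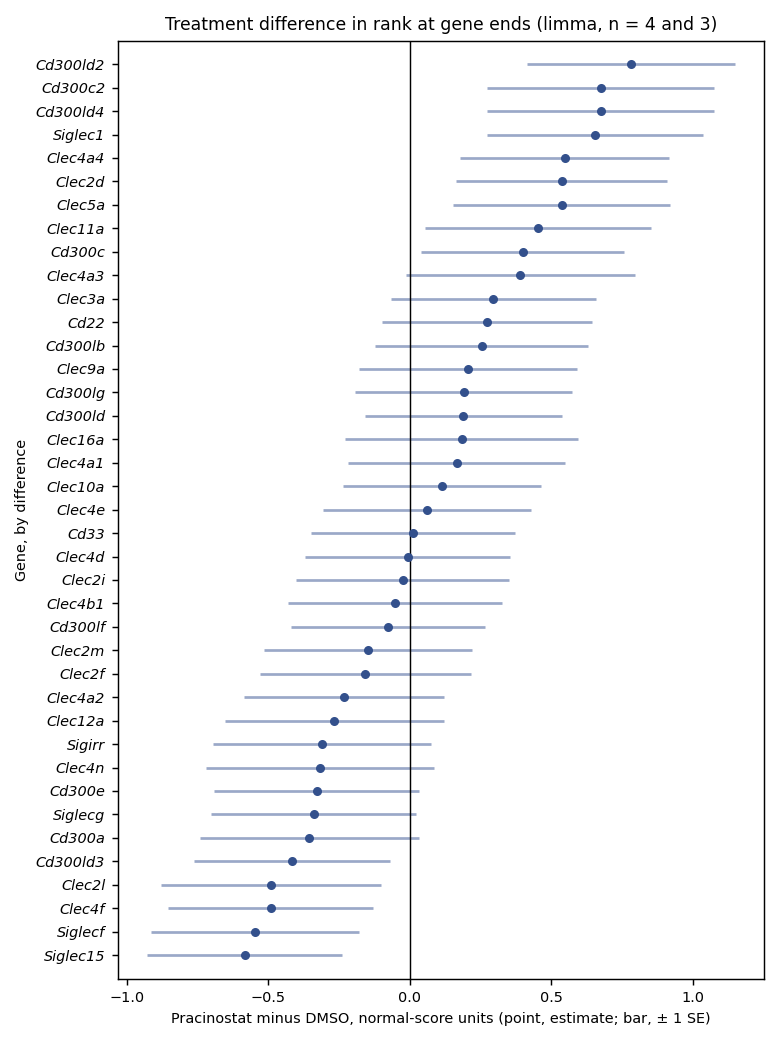
Pracinostat minus DMSO difference in normal score at the gene ends for the 39 ranked receptor genes, with bars of 1 SE from limma (4 pracinostat and 3 DMSO libraries). The estimates run from −0.58 for Siglec15 to 0.78 for Cd300ld2, which like Clec3a was ranked through pracinostat libraries alone, and none passed an adjusted p of 0.05.

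Cd300ld2 (chromosome 11, 115010320 to 115016835), a little-studied member of the Cd300 cluster, was the 1 receptor gene with an unadjusted p under 0.05. It had percentiles of 34.7, 20.1, 38.2 and 15.9 in pracinostat libraries, against 5.61, 19.0 and 3.83 in DMSO libraries, of which all 3 are the ties of genes with no summit. On full lists all 4 pracinostat libraries and no DMSO library had a summit at its ends, a pattern shared by 0.329% of all genes; no receptor gene had the reverse, which 0.0228% of all genes did. Since its 4 pracinostat summits alone brought it into the ranking, its difference of 0.78 ± 0.37 is a description, and its unadjusted p carries no weight; 2.74% of all ranked genes were higher and 3.42% lower at an unadjusted p under 0.05. With each list limited to its 30000 highest-scoring summits, Cd300ld2 had no gain, and 0 receptor genes were gained and 0 lost, beside 0.164 and 0.169% of all genes. Siglec1, Clec4a1, Cd300lb, Cd300c2 and Cd300ld4 had a summit in all 7 of the limited lists.

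In the other direction Cd300ld3 (CLM-3, chromosome 11, 115042104 to 115048419) ranked lower in every pracinostat library than in every DMSO library, as did 3.79% of all ranked genes. Its percentiles were 30.8, 22.4, 32.3 and 30.0 in pracinostat libraries, against 34.3, 62.6 and 36.5 in DMSO libraries. The gap was small apart from DMSO replicate 2, and the limma adjusted p was 0.894. By their starts, 10 of the 25 ranked members were higher and 15 lower, 0 passed beside 0% of the 10153 genes, and the smallest adjusted p was 0.826. Clec5a, a Tyrobp-coupled lectin, was higher in every pracinostat library by its start, as were 3.01% of genes. Its values there were 41.2, 31.7, 67.5 and 31.6, against 20.7, 16.6 and 21.5 in DMSO libraries, where 16.6 is a tie of genes with no summit. At its gene ends the groups overlapped, at 85.2, 39.7, 71.4 and 42.4 in pracinostat and 34.3, 19.0 and 70.7 in DMSO libraries. Cd300ld3 was again the 1 member lower in every pracinostat library, as were 3.5% of genes by their starts.

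In position, 35 of the 52 genes formed 4 loci, each of at least 3 members less than 500 kb apart. The Cd300 locus (chromosome 11, 114888152 to 115136372) held 11 members and Rab37, and the Clec4 locus (chromosome 6, 122920848 to 123290871) held 9 members. The Clec2-Clec12 locus (chromosome 6, 128661385 to 129453000) held 12 members with Cd69 and genes of the Klrb1 family, and the Siglec locus (chromosome 7, 43350341 to 43538424) held Siglecf, Siglecg and Cd33 with 9 other genes.

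The Cd300 locus was the densest. Its summits per 100 kb were 5.05 ± 0.733 times the mean of the library over the genome in pracinostat libraries and 5.27 ± 1.39 times in DMSO libraries (SD, n = 4 and 3). The Siglec locus had 3.50 ± 0.586 times in pracinostat and 3.71 ± 1.03 times in DMSO libraries. The Clec4 locus had 1.75 ± 0.476 times in pracinostat and 1.56 ± 0.518 times in DMSO libraries. The Clec2-Clec12 locus had 1.71 ± 0.278 times in pracinostat and 1.47 ± 0.433 times in DMSO libraries. NSG mice carry an NOD background whereas mm10 is the assembly of C57BL/6J, and whether sequence differences between the strains moved counts or ranks in this locus was not tested. The lowest density of any of the 7 libraries was 4.02 times in the Cd300 locus and 1.03 times in the Clec2-Clec12 locus. Over the 7 IgG libraries together the 4 loci held 5, 6, 4 and 14 summits (Cd300, Siglec, Clec4, Clec2-Clec12), against 732, 387, 394 and 813 over the 7 H3K27ac libraries.

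**Figure D4:**
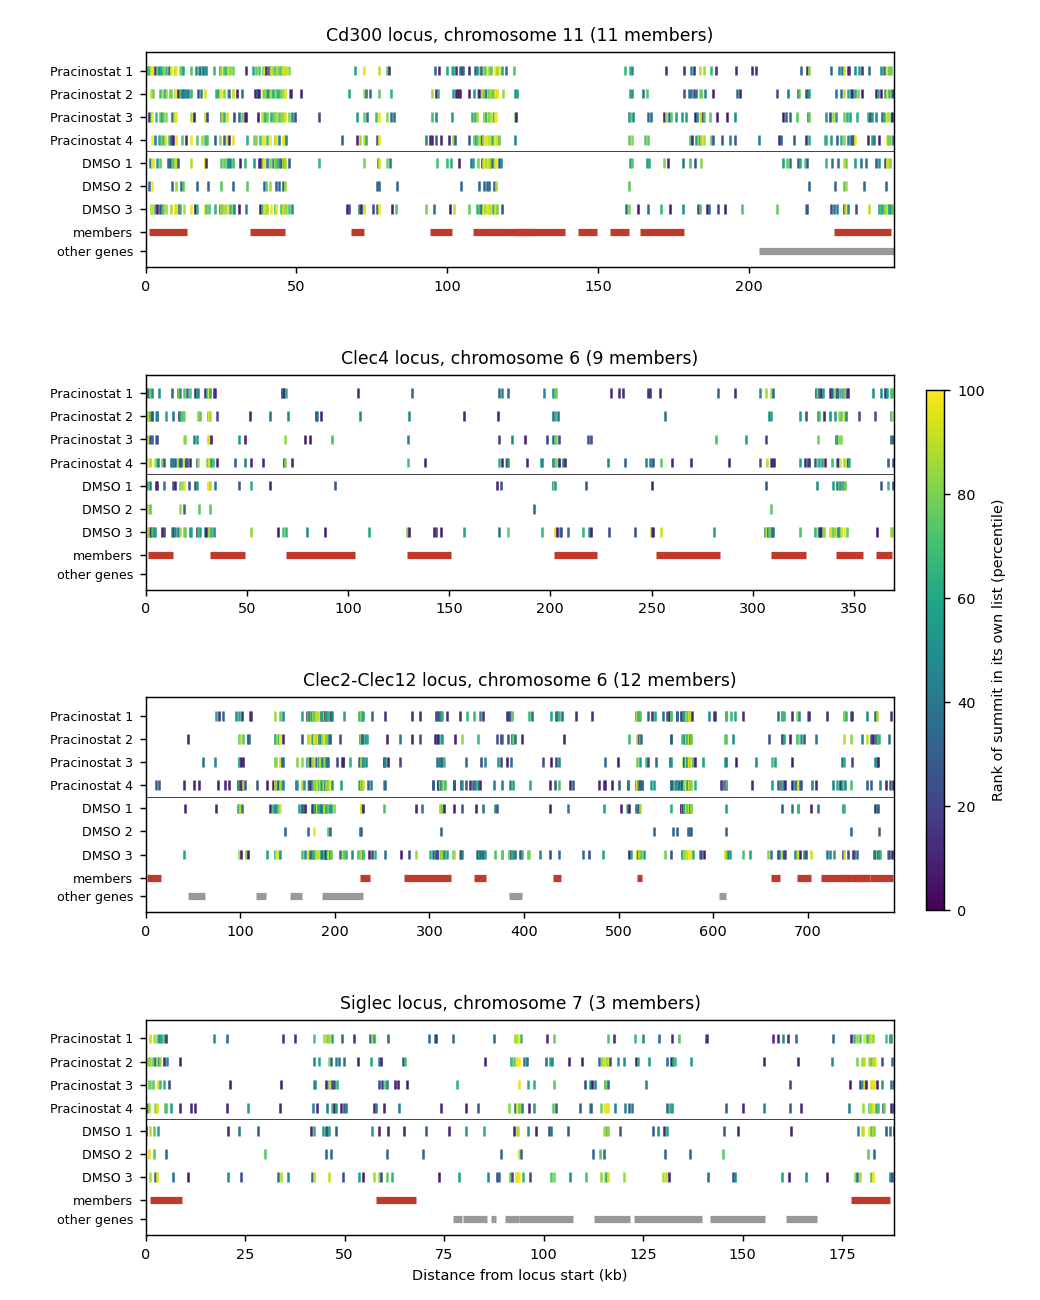
Position of every H3K27ac summit in the 4 loci, in kb from the start of the locus, by library (pracinostat above DMSO), coloured by the rank of the summit in its own list; bars below are member genes and other genes. In the Cd300 locus the high-ranking summits gather at the left, near Cd300a and Cd300lb, and around 116 kb, and DMSO 2 has far fewer marks than the other libraries in every locus.

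**Figure D5:**
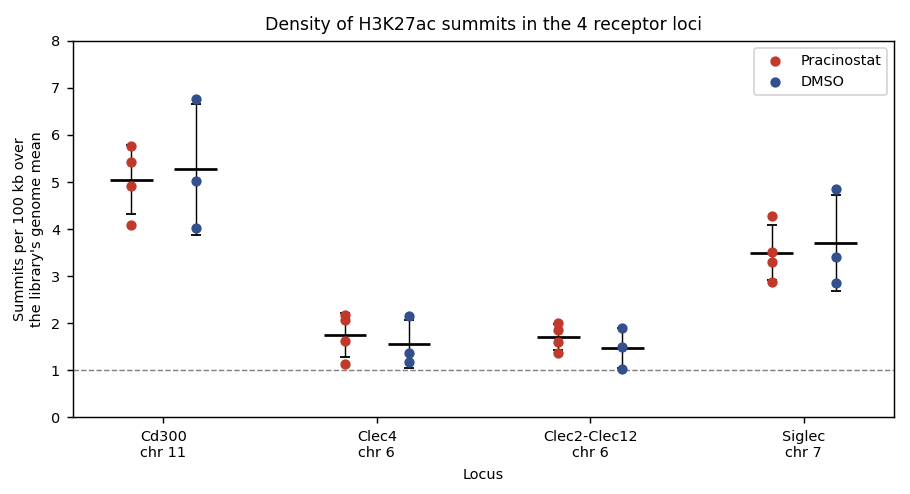
Summits per 100 kb in each locus over the genome mean of the library, with 1 point per library and the mean ± SD of 4 pracinostat and 3 DMSO libraries; the dashed line is the genome mean. The Cd300 locus lies between 4.02 and 6.77 in all 7 libraries and the treatments overlap in every locus.

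The share of a library's summits that fell in a locus did not separate the treatments. The Cd300 locus took 4.88 ± 0.708 of every 10000 summits in pracinostat libraries and 5.09 ± 1.35 in DMSO libraries, and the Clec4 locus 2.52 ± 0.684 in pracinostat and 2.25 ± 0.746 in DMSO libraries (SD, n = 4 and 3). The Clec2-Clec12 locus took 5.25 ± 0.855 in pracinostat and 4.54 ± 1.33 in DMSO libraries, and the Siglec locus 2.56 ± 0.429 in pracinostat and 2.71 ± 0.752 in DMSO libraries. An exact two-sided permutation test of the treatment labels gave p of 0.83 for Cd300, 0.71 for Clec4, 0.49 for Clec2-Clec12 and 0.69 for Siglec, all 0.83 after Benjamini-Hochberg adjustment over the 4 loci; the smallest p that 35 splits allow is 0.0286. Without DMSO replicate 2, the differences of the Cd300 and Siglec loci changed sign, to 0.51 and 0.27 per 10000, and that of the Clec4 locus to −0.01.

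Within the loci the strongest marks did not always belong to the members. In the Cd300 locus the region with the highest mean rank, chr11:115003579-115004856, covered the upper end of Cd300c2 and the lower end of Cd300ld4, at 98.1, 92.8, 95.5 and 97.2 in pracinostat libraries, against 94.1, 86.7 and 80.1 in DMSO libraries. In the Clec4 locus it was chr6:122951644-122952875 at the start of Clec4a3, with means of 87.8 ± 8.42 in pracinostat and 77.3 ± 17.9 in DMSO libraries (SD, n = 4 and 3). In the Clec2-Clec12 locus it was chr6:129235626-129236854, 31084 bp from the nearest gene end, that of Cd69, an early activation antigen and itself a C-type lectin, with means of 94.4 ± 3.34 in pracinostat and 82.9 ± 19.8 in DMSO libraries. In the Siglec locus it lay at Cldnd2 and Etfb, chr7:43443136-43444378, with 94.1 ± 6.72 in pracinostat and 87.3 ± 13.9 in DMSO libraries. The region at the start of Cd33, chr7:43531645-43533687, was close behind, at 84.6 ± 8.05 in pracinostat and 86.8 ± 8.18 in DMSO libraries.

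The share of the locus summits lying inside members or at their ends or starts also differed. In the Cd300 locus 26.8% of the summits of the 7 libraries were at a member's end or start and another 40.6% elsewhere in a member gene, and 27.5% lay between genes. In the Clec2-Clec12 locus 6.40% were at an end or start of a member and 53.5% lay between genes. In 6 of the 7 libraries the highest-scoring summit of that locus had Cd69 as its nearest gene, the exception being DMSO replicate 2. The highest-scoring summit of the Cd300 locus was in or near Cd300a in 4 libraries and in the window shared by Cd300c2 and Cd300ld4 in 2. In DMSO replicate 1 it lay 1 bp from the start of Cd300lf, inside the span of Rab37.

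Regions built from the top 30000 summits of each library gave 102 ranked regions in the loci or at members' ends, of which 31 had a summit in all 7 libraries, 15 of them in the Cd300 locus. None of the 102 passed the test, beside 0.00413% of the 48389 regions tested, and the smallest adjusted p was 0.895. At an unadjusted p under 0.05 there were 2 higher and 4 lower, beside 2.61 and 2.54% of all regions, and 5 regions were higher and 3 lower in every pracinostat library than in every DMSO library, beside 3.35 and 3.03%. The higher regions were both in the Clec2-Clec12 locus and outside any member gene. The one at chr6:129232748-129233290, 34305 bp from the end of Cd69, had 99.6, 96.7, 95.5 and 88.7 in pracinostat libraries, against 97.8, 25.1 and 76.3 in DMSO libraries, so the groups overlapped. The one at chr6:128845252-128845798, near BC035044, had 81.1, 87.5, 92.3 and 87.5 in pracinostat libraries, against 71.8, 25.1 and 68.6 in DMSO libraries. In both, the 25.1 of DMSO replicate 2 is its tie of unmarked regions. Of the lower regions, 1 was that in Siglec1. Another was chr6:122937306-122938214, 3141 bp from Clec4a1, at 62.0, 30.7, 10.8 and 19.4 in pracinostat libraries, against 56.4, 86.7 and 56.7 in DMSO libraries. The 10.8 is the tie of regions with no summit, and 1 IgG library had a summit in this region. The other 2 were named after their values were seen. A region inside Clec2g, chr6:128973204-128973789, was marked in all 7 libraries and lower in every pracinostat library, at 27.2, 36.9, 28.5 and 19.4, against 65.7, 60.8 and 74.0 in DMSO libraries (limma adjusted p = 0.895). A region near Klrb1c, chr6:128760685-128761237, had 9.12, 61.7, 10.8 and 19.4 in pracinostat libraries, against 69.9, 25.1 and 84.5 in DMSO libraries, so the groups overlapped. Its 9.12, 10.8 and 25.1 are ties of regions with no summit.

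Several signalling partners of the receptors had a summit in every library and a high rank. The 16 listed ITAM adaptors and kinases averaged a percentile of 65.6 ± 3.18 in pracinostat and 66.5 ± 3.55 in DMSO libraries (SD, n = 4 and 3), and 14 of them had a summit in all 7 libraries. Tyrobp, the adaptor of Clec5a, Cd300lb and Siglec15, averaged 97.3 ± 3.06 in pracinostat and 93.2 ± 4.33 in DMSO libraries, and Fcer1g, the adaptor of Clec4e and Clec4n, 72.2 ± 21.1 in pracinostat and 73.1 ± 24.6 in DMSO libraries. Of the 16, 7 were higher and 9 lower, and 0 passed the test. Syk, the kinase that both adaptors recruit, had the largest negative difference of the list, at 61.3 ± 9.27 in pracinostat and 84.7 ± 0.571 in DMSO libraries, with a limma adjusted p of 0.809. Syk and Vav1 were the 2 genes of the list with every pracinostat library below every DMSO library, as for 3.79% of all ranked genes. Pik3cd, a catalytic subunit of phosphoinositide 3-kinase, had the largest positive difference, at 83.2 ± 6.30 in pracinostat and 61.8 ± 14.9 in DMSO libraries, with an adjusted p of 0.848.

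The 8 genes of the Card9 module averaged 76.6 ± 2.70 in pracinostat and 79.6 ± 4.40 in DMSO libraries, with 4 higher, 4 lower and 0 past the test. Card9 itself averaged 90.0 ± 4.65 in pracinostat and 81.3 ± 11.4 in DMSO libraries. Otulin, a deubiquitinase of linear ubiquitin chains, had the largest positive difference, at 97.0 ± 2.37 in pracinostat and 85.2 ± 12.4 in DMSO libraries (limma adjusted p = 0.848). Map3k7, the kinase TAK1, had the largest negative one, at 60.6 ± 10.99 in pracinostat and 82.2 ± 25.7 in DMSO libraries (adjusted p = 0.777). The 10 listed ITIM phosphatases and adaptors averaged 59.7 ± 3.40 in pracinostat and 56.0 ± 4.24 in DMSO libraries, with 8 higher, 2 lower and 0 past the test. Ptpn6, the phosphatase SHP-1, had the largest positive difference, at 68.8 ± 10.1 in pracinostat and 53.4 ± 10.2 in DMSO libraries (limma adjusted p = 0.902). Dok3, an inhibitory adaptor, had the largest negative one, at 22.7 ± 18.5 in pracinostat and 33.0 ± 17.4 in DMSO libraries (adjusted p = 0.920).

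The 23 genes that make, attach or remove sialic acid, the ligand of the Siglecs, averaged 46.0 ± 4.39 in pracinostat and 50.1 ± 6.40 in DMSO libraries, with 9 higher, 14 lower and 0 past the test. Slc35a1, which carries activated sialic acid into the Golgi, had the largest negative difference, at 24.6 ± 14.0 in pracinostat and 66.6 ± 8.45 in DMSO libraries. Every pracinostat library was below every DMSO library for Slc35a1, St6galnac2 and St8sia6, as for 3.79% of all ranked genes, and above every DMSO library for St3gal5, as for 2.88%. In St8sia6, pracinostat replicates 2, 3 and 4 and DMSO replicate 2 sat at the ties of genes with no summit. The tie of DMSO replicate 2, at 19.0, lay above the 12.7 of pracinostat replicate 1, which had a summit. The difference of Slc35a1 was −1.22 ± 0.36 with a limma adjusted p of 0.571. St3gal5, the synthase of ganglioside GM3, had the largest positive one, at 73.7 ± 9.06 in pracinostat and 40.1 ± 18.7 in DMSO libraries, with an adjusted p of 0.777. At an unadjusted p under 0.05 were 5 of the 23 genes, beside 2.74% of all genes higher and 3.42% lower.

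Markers of neutrophils, which a CD11b+ sort could hold, stood lower in pracinostat libraries, and their part in the values of Clec4e, Clec4d, Clec5a, Clec12a and Siglecf, which neutrophils or eosinophils also express, was not tested. All 8 macrophage and microglia markers had a higher mean score in pracinostat libraries, as did 48.6% of all ranked genes, and 0 passed the test. Of the 7 neutrophil markers, 6 were ranked and Ly6g had no summit in any H3K27ac library. The 6 averaged 24.0 ± 5.34 in pracinostat libraries, in a range of 18.6 to 31.1, and 40.9 ± 7.74 in DMSO libraries, in a range of 32.5 to 47.7, with 5 of 6 lower, 3 of them at an unadjusted p under 0.05, beside 3.42% of all ranked genes, and 0 past the test. The 5 dendritic cell markers averaged 34.0 ± 2.61 in pracinostat and 38.0 ± 5.20 in DMSO libraries. Xcr1 alone had 98.9 ± 0.523 in pracinostat and 94.1 ± 8.24 in DMSO libraries, and the other 4 averaged 17.7 ± 3.38 in pracinostat and 24.0 ± 4.45 in DMSO libraries. The 4 platelet markers averaged 17.6 ± 4.23 in pracinostat and 27.8 ± 8.85 in DMSO libraries. Pf4 had every pracinostat library below every DMSO library, at 19.96 ± 13.2 in pracinostat and 65.2 ± 24.5 in DMSO libraries (limma adjusted p = 0.488), and the other 3 averaged 16.8 ± 9.41 in pracinostat and 15.3 ± 3.66 in DMSO libraries. Of the B cell markers 4 of 5 were ranked, with 24.3 ± 7.97 in pracinostat and 25.1 ± 6.29 in DMSO libraries, and of the T and NK cell markers 3 of 5, with 26.3 ± 6.12 in pracinostat and 30.4 ± 2.53 in DMSO libraries. Oligodendrocyte markers (3 of 5 ranked, with Mobp unmarked in all 7 libraries) had 36.8 ± 3.82 in pracinostat and 45.2 ± 13.6 in DMSO libraries. Endothelial markers (3 of 5 ranked) had 32.2 ± 2.64 in pracinostat and 35.2 ± 18.1 in DMSO libraries.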

How the data were processed

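H3K27ac and IgG CUT&Tag libraries (14 in all) each had 1 deposited list of peak summits, called per library. The score in each list is a −log10 value as deposited by the authors, per the file layout that MACS2 writes; whether of a p-value or q-value is not stated. The build was mm10 and the tools named were HOMER, DESeq2, Bowtie2 and MACS2 (version 2.2.9.1), per the submitters' processing notes. What each tool did, the calling threshold and the reads per library: not given in the sources used here. Depth is visible only as the number of summits.

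Genes were those of GRCm38.p6 (RefSeq). Percentiles and normal scores were computed from ranks within each library. Treatment was fitted in limma 3.58.1 (trended, robust) over all ranked genes or regions with Benjamini-Hochberg adjustment. The fit was first tried on simulated data with shifts larger than the difference of any member. That trial does not cover differences of the size seen here. Regions were the 30000 highest-scoring summits per library extended by 250 bp and merged, with ties drawn at random under a fixed seed. The genome mean of summit density left out the ends of chromosomes with no summit. Genes given in every library were the 8 highest by mean percentile, the 4 largest differences either way, those with unadjusted p under 0.05, and Cd33, Cd22, Clec4e, Clec12a, Clec9a, Siglec1, Cd300a, Cd300lf, Mag, Sigirr and Clec16a; Clec5a, Cd300ld3, Clec3a, Vav1, Pf4, Xcr1, St3gal5, St6galnac2 and St8sia6 were added after their values were seen. In the partner lists Tyrobp, Fcer1g, Syk, Card9, Ptpn6 and the largest difference each way were named. Members, lists and tests were chosen with earlier results of these data known. Alternatives tried were other windows, list lengths, rank filters, weights, a list-length covariate, a replicate block and leaving out each library.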

Additional observations from a re-analysis of the deposited data

Results flagged for a closer look

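Gene by gene, 37 groups of 4 pracinostat values were checked for 1 library far from the other 3, and 3 were found; chance gives about 1 in 20. At the gene ends of Siglecf, pracinostat replicate 1 had a percentile of 57.5, with the nearest of the others at 41.0. At the start of Cd300a, pracinostat replicate 2 had 42.5, with the nearest at 85.9. At the start of Clec2l, pracinostat replicate 4 had 19.4, with the nearest at 4.36, where the other 3 values are the ties of genes with no summit.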

How the results depend on the processing

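The count of 0 receptor genes called held in all 19 alternatives. In these the smallest limma adjusted p of a member was 0.431 and 0 to 2 members had an unadjusted p under 0.05. The share of ranked members that were higher ran from 10 of 25 (starts) to 11 of 13 (lists of 30000). The share over all genes was not counted in these settings, so the shares of members are no result about the receptors. Over all genes, 0 calls became 2 with any summit enough to rank a gene, 1 with a summit needed in all 7 libraries, 2 with 500 bp windows and 1 with lists of 30000, and ranged from 0 to 4 when 1 library was left out. Over all regions, 2 calls became 0 with list length as a covariate and 1 with the replicate block, and ranged from 0 to 2 when 1 library was left out; 0 regions at the receptors were called in any of 12 alternatives. Deviations of same-numbered libraries correlated at −0.05, 0.00052 and −0.02, so no pairing by number was seen, which does not exclude one. The replicate block called 0 genes and changed no call of a receptor gene. The 1 gain on full lists was Cd300ld2. Locus shares (per 10000 summits, pracinostat minus DMSO) changed sign for Clec4 with lists of 30000 (−0.64) and 15000 (−0.61), for Cd300 with 15000 (1.44), and for Siglec with 15000 (0.78) and edges widened to 50 kb (0.11). With 1 library left out they ranged from −0.82 to 0.51 (Cd300), −0.0104 to 0.69 (Clec4), 0.03 to 1.36 (Clec2-Clec12) and −0.46 to 0.27 (Siglec). Without pracinostat replicate 4 the Cd300 value was 0.10. Among 20 named receptor genes, 37 of 342 alternative estimates had the opposite sign to the main one, none by more than its error; Cd300c2, Cd300lb, Cd300ld2, Cd300ld4, Clec2l, Clec4a3, Clec4f, Siglec1, Siglec15 and Siglecf kept their sign in every alternative in which they were ranked. Reading starts without DMSO replicate 2 was added after the data were seen and called 0 genes. The sparse list of DMSO replicate 2 limits what can be detected among low-ranked genes.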
